A study of Mus musculus with 39 samples.

Results

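The transcripts described here are those of 10 antioxidant enzyme genes of the mouse: the 6 peroxiredoxin genes Prdx1 to Prdx6, the thioredoxin gene Txn1, the superoxide dismutase genes Sod1 and Sod2, and the glutathione peroxidase gene Gpx4. They were taken by symbol as 10 of the 55487 gene rows of the count table, of which 29371 held a count, and all 10 were among the 14119 genes tested. RNA was sequenced in 39 libraries of wild-type (WT) embryos, each made from 1 whole embryo or 1 blastomere (a cell of the cleaving embryo), and these libraries came from 19 embryos. The groups were 5 intact 2-cell embryos, 5 separated 2-cell embryos (10 blastomere libraries), 4 intact 4-cell embryos and 5 separated 4-cell embryos (20 blastomere libraries). The labels give no strain, mouse line, added agent or hours of development, and they do not say whether the embryos came from separate animals or litters, so p-values reflect only how far these embryos varied, and part of that variation may be technical. It is not stated either whether blastomeres were cultured after separation.

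Peroxiredoxins are thiol peroxidases. A reactive cysteine, the peroxidatic cysteine, is oxidised by hydrogen peroxide, and in the typical family members the resulting disulfide is reduced by thioredoxin, which takes its electrons from NADPH through thioredoxin reductase. Superoxide dismutases turn superoxide into hydrogen peroxide, and Gpx4 is a selenoprotein that reduces lipid hydroperoxides in membranes with glutathione. In the mouse, transcripts stored in the oocyte are degraded and the embryo's own genome is switched on around the 2-cell stage, so that both stages studied hold a changing mix of inherited and newly made transcripts.

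The codon that the chemistry of each enzyme depends on is shown first, because the 6 peroxiredoxin genes are related and their transcripts have to be told apart to be counted. Each line is 30 bases of coding sequence on the gene's own strand, 5′ to 3′, from GENCODE M21 transcripts on GRCm38. Capitals mark the codon of the peroxidatic cysteine in the peroxiredoxins, both active-site cysteine codons in Txn1, and in Gpx4 the TGA codon that is read as selenocysteine.
Prdx1: tttacttttgtgTGTcccacggagatcatt
Prdx2: ttcacttttgttTGCcccacggagatcatc
Prdx3: ttcacatttgtgTGTcctacagaaattgtt
Prdx4: ttcacctttgtgTGTccaactgaaatcatc
Prdx5: tttacacctggcTGTtctaagacccacctg
Prdx6: tttaccccagtgTGCaccacagaacttggc
Txn1: tctgctacgtggTGTggacctTGCaaaatg
Gpx4: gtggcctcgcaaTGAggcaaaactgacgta

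Prdx1 and Prdx2 encode the abundant cytosolic enzymes. Identity of coding sequences was counted over the whole alignment, gaps included, which lowers it for pairs of unequal length. By this measure Prdx1 and Prdx2 had the highest value of the 15 peroxiredoxin pairs, 69.7%, with 590 bases aligned. Prdx3 and Prdx4 came next, at 58.9%. The coding sequences hold 597 bases in Prdx1 and 594 in Prdx2, against 771 in Prdx3 and 822 in Prdx4. This order therefore does not rank relatedness alone. The longest run of identical bases between the coding sequences of Prdx1 and Prdx2 was 14. Prdx2 and Prdx4 shared the longest run of any peroxiredoxin pair, 23 bases. Copies elsewhere in the genome took few counts: Prdx2-ps1 held 0.508% of the Prdx2 total, Txn-ps1 0.0955% of the Txn1 total and Prdx6b 0.0107% of the Prdx6 total. Gpx4 was the exception, with Gpx4-ps2 at 4.27% of its counts and a stretch of 314 identical bases between their transcripts, so the split of reads between these 2 genes is uncertain.

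In intact embryos, Prdx2 and Prdx4 fell from the 2-cell to the 4-cell stage, and edgeR called none of the 10 genes higher. Prdx2 fell by 4.43 ± 0.73 (SE) on the log2 scale and Prdx4, which encodes the peroxiredoxin of the endoplasmic reticulum, by 2.78 ± 0.58. In separated embryos Prdx2 also fell by 4.78 ± 0.84, and Prdx4 was not called. The transcript of Prdx1, which encodes the other abundant cytosolic enzyme, was not called in either. All values are CPM, the counts of a gene per 1000000 counts of the embryo, scaled by TMM, a correction for library composition, and the test was the quasi-likelihood F-test of edgeR with Benjamini-Hochberg adjustment over all 14119 genes, called at an adjusted p under 0.05. CPM is relative to all other transcripts of the same embryo, so fewer molecules of 1 transcript cannot be told apart from more of the others. In the separated 4-cell group the fitted level is that of batch 1 (3 embryos), because batch 2 holds 2 separated 4-cell embryos and no other group.

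Across intact embryos, 2 of the 10 genes were called lower and 0 higher, and 10.4% of all genes tested were called in this comparison (4.99% lower and 5.41% higher). The median log2 difference of the 10 genes was -0.25, beside -4.6e-05 over all genes tested. Across separated embryos, 1 of 10 was called lower and 0 higher, where 11.1% of all genes were called (4.7% lower and 6.4% higher). There the median of the 10 genes was 0.26, beside -0.15 over all genes. The medians of the 10 genes thus lie on opposite sides of 0 in the 2 kinds of embryo. Gene by gene, the stage difference in separated minus that in intact embryos had a median of 0.04, beside -0.13 over all genes. It was positive in 5 of the 10 genes and negative in 5, and edgeR called none.

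**Figure D1:**
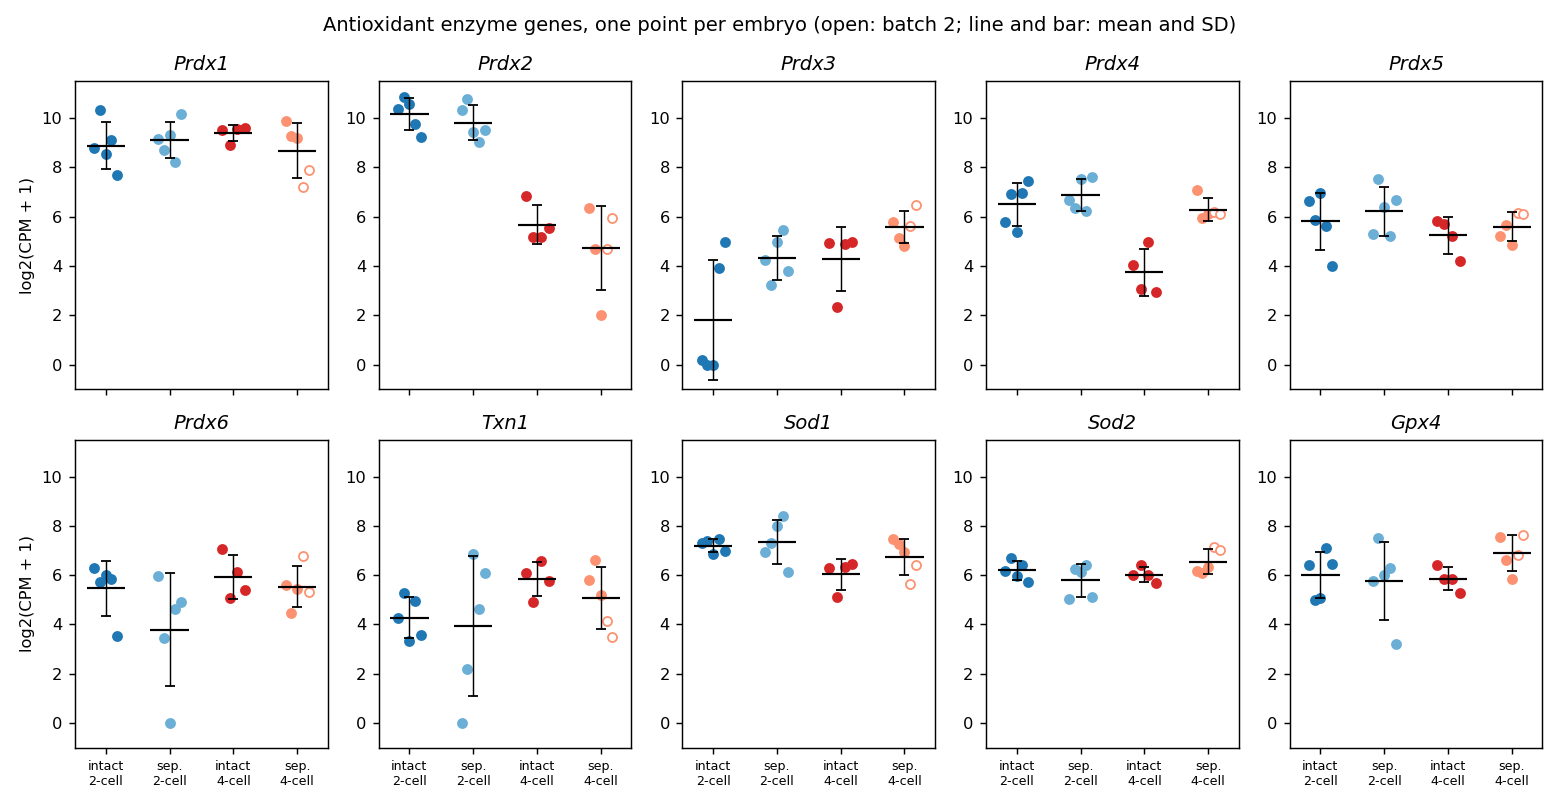
Level of each of the 10 genes as log2(CPM + 1) on the vertical axis, with 1 point per embryo in the 4 groups; open points are the 2 embryos of batch 2, and the line and bar are the mean and SD. Prdx2 is the gene whose 4-cell points all lie below all 2-cell points in intact and in separated embryos, and Prdx4 is low in intact 4-cell embryos alone.

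Prdx2 encodes a cytosolic peroxiredoxin best known from red blood cells. The gene lies on the plus strand at chr8:84969587-84974834 (GRCm38). Its level was 1323, 1845, 1512, 876 and 599 CPM in intact 2-cell embryos 1 to 5, and 113, 35.0, 34.7 and 45.9 CPM in intact 4-cell embryos 1, 3, 4 and 5. All 4 intact 4-cell embryos lay below the lowest 2-cell embryo, with embryo 1 the highest of them. The mean was 1231 ± 498 CPM (SD, n = 5) at the 2-cell stage and 57.2 ± 37.7 CPM (SD, n = 4) at the 4-cell stage, a 21.5-fold lower fitted level (edgeR, adjusted p = 0.000759). Separated embryos enter this comparison only through the shared filter, scaling and estimate of spread. The call held when each of the 19 embryos was left out in turn (edgeR, highest adjusted p = 0.00405). It ended with limma voom on blastomere libraries (adjusted p = 0.649, in a range from 6.1e-30 over the alternatives), a fit whose precision weights reached 5.07e+16 beside a median of 0.183. With limma-trend, which uses no such weights, the same libraries gave -4.85 ± 1.23 (adjusted p = 0.00716).

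Separated embryos gave the same order. Prdx2 was at 1295, 1755, 691, 522 and 724 CPM in separated 2-cell embryos 1 to 5, with a mean of 997 ± 514 CPM (SD, n = 5). It was at 81.1, 24.5 and 3.01 CPM in separated 4-cell embryos 2, 3 and 4 of batch 1, and at 24.7 and 59.8 CPM in embryos 6 and 7 of batch 2. The highest 4-cell embryo was again well below the lowest 2-cell embryo, and the 2 batches overlapped. The fitted level was 27.5-fold lower (edgeR, adjusted p = 0.00169, at most 0.0117 with any embryo left out). The call ended with limma voom on embryos (adjusted p = 0.0662) and on blastomere libraries (adjusted p = 0.268), in a range from 1.2e-26 over the alternatives, and limma-trend called it in both (adjusted p = 7.1e-05 and 6.6e-08). The interaction, which compares the stage difference of separated embryos with that of intact ones, was -0.36 ± 0.90 on the log2 scale, with a 95% interval from -2.24 to 1.53 (edgeR, adjusted p = 1.0).

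Exons of Prdx2 overlap those of 2 genes on the opposite strand, Rnaseh2a and Junb, and strandedness of the counting is not given in the sources used here, so reads of overlapping exons cannot be told apart. Rnaseh2a held 13731 counts and Junb 41 over all embryos, against 239596 for Prdx2. Prdx2 itself held 4631 to 15162 counts in intact 2-cell embryos and 94 to 437 in intact 4-cell embryos. The counts of Rnaseh2a and Junb were not split by stage. The part of overlapping reads in the 4-cell level of Prdx2 was thus not tested. Hemoglobin and other blood cell transcripts were looked at beside Prdx2 because red blood cells are rich in it. Alpha-globin transcripts were detected, and Hba-a1 led the blood markers at a mean of 11.9 CPM in intact 2-cell, 5.87 CPM in intact 4-cell and 12.2 CPM in separated 4-cell embryos, while Hba-a2 led at 5.88 CPM in separated 2-cell embryos. The list summed to 4.39 to 25.1 CPM in intact 2-cell embryos and 1.81 to 19.3 CPM in intact 4-cell embryos, with Hbb-bs, Hbb-bt, Ptprc and Alas2 at 0 in both groups. In separated embryos the sum ran from 4.72 to 31.8 CPM at the 2-cell stage, again with those 4 markers at 0, and from 1.23 to 50.4 CPM at the 4-cell stage, with Hbb-bt, Lyz2 and Cd74 at 0.

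Prdx4 encodes the peroxiredoxin of the secretory pathway, and its gene lies on the minus strand at chrX:155323918-155340754. The gene was at 54.6, 121, 40.9, 123 and 175 CPM in intact 2-cell embryos 1 to 5, and at 15.3, 7.44, 30.6 and 6.59 CPM in intact 4-cell embryos 1, 3, 4 and 5. The highest 4-cell value, in embryo 4, was below the lowest 2-cell value, in embryo 3. The means were 103 ± 54.9 CPM (SD, n = 5) and 15.0 ± 11.1 CPM (SD, n = 4), a 6.85-fold lower fitted level (edgeR, adjusted p = 0.00497). The call ended with limma voom on blastomere libraries (adjusted p = 0.0578, in a range from 3.1e-06 over the alternatives), and limma-trend on the same libraries gave an adjusted p of 0.00105.

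In separated embryos the stages overlapped for Prdx4. Its values were 100.007, 80.0, 184, 75.0 and 196 CPM at the 2-cell stage, and 135, 60.3, 67.4, 71.5 and 67.4 CPM at the 4-cell stage (embryos 2, 3 and 4, then 6 and 7). The means were 127 ± 58.4 and 80.4 ± 31.0 CPM (SD, n = 5 each), and the fitted difference was -0.53 ± 0.59 on the log2 scale (edgeR, adjusted p = 0.617). The difference between the stage effects of separated and intact embryos was 2.24 ± 0.79, with a 95% interval from 0.60 to 3.88 and an unadjusted p of 0.00986 in edgeR, and it failed the adjustment over all genes (adjusted p = 0.417).

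The remaining peroxiredoxins were not called in either stage comparison. Prdx1, on the plus strand at chr4:116685544-116700822, was at 436, 1270, 367, 554 and 206 CPM in intact 2-cell embryos and at 724, 474, 761 and 765 CPM in intact 4-cell embryos. The 2-cell values spanned the 4-cell ones on both sides. In separated embryos it was at 561, 418, 635, 298 and 1149 CPM at the 2-cell stage, and at 931, 619 and 575 CPM in batch 1 and 145 and 237 CPM in batch 2 at the 4-cell stage. The fitted stage differences were 0.27 ± 0.43 and 0.21 ± 0.46 on the log2 scale in intact and separated embryos (edgeR, adjusted p = 0.744 and 0.831), with 95% intervals from -0.63 to 1.16 and from -0.76 to 1.18.

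Prdx3 encodes the mitochondrial peroxiredoxin (chr19:60864051-60874556, minus strand) and was at 0.139 CPM or less in 3 of the 5 intact 2-cell embryos. It was at 0.139, 0, 0, 14.0 and 30.1 CPM in intact 2-cell embryos and at 29.5, 4.09, 28.9 and 30.3 CPM in intact 4-cell embryos. The groups overlapped through 2-cell embryos 4 and 5, and through 4-cell embryo 3. The fitted difference was 1.39 ± 1.29 on the log2 scale (edgeR, adjusted p = 0.533), with a 95% interval from -1.31 to 4.09. On log2 CPM of embryos, limma voom and limma-trend gave 4.39 and 4.38 and called it (adjusted p = 0.0454 and 0.0445, in a range up to 0.686 over the alternatives).

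Prdx5, an atypical peroxiredoxin of mitochondria, peroxisomes and cytosol (chr19:6906697-6910106, minus strand), had means of 68.2 ± 42.5, 88.0 ± 59.9, 40.2 ± 17.4 and 50.4 ± 19.1 CPM (SD) in intact 2-cell, separated 2-cell, intact 4-cell and separated 4-cell embryos. Its exons overlap those of Trmt112 on the opposite strand, which held 54715 counts against 36272 for Prdx5, so reads of the shared exons cannot be told apart here either. Prdx6, which works with a single reactive cysteine and glutathione (chr1:161240112-161251219, minus strand), had means of 51.8 ± 25.1, 24.9 ± 23.8, 69.3 ± 45.4 and 52.0 ± 33.9 CPM in the same order. The stage differences ranged from -1.22 ± 0.67 for Prdx5 in separated embryos to 0.56 ± 1.06 for Prdx6 in separated embryos (edgeR, adjusted p = 0.239 and 0.798). With each blastomere as a library, Prdx5 was called in separated embryos, at -2.95 with limma voom and -3.27 with limma-trend (adjusted p = 0.0233 and 0.00538, in a range up to 0.345 over the alternatives).

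Counted within each embryo, the make-up of the peroxiredoxin transcripts differed between stages. Prdx2 made up 60.8 ± 8.11% (SD, n = 5) of all peroxiredoxin counts in intact 2-cell embryos and 52.3 ± 15.4% (n = 5) in separated ones, against 6.26 ± 3.01% (n = 4) and 5.13 ± 3.84% (n = 5) at the 4-cell stage. Prdx1 made up 26.1 ± 8.97% and 33.0 ± 13.2% at the 2-cell stage, and 77.4 ± 7.06% and 59.9 ± 21.8% at the 4-cell stage. The ratio of Prdx2 to Prdx1 counts ran from 1.45 to 4.12 in intact 2-cell embryos, from 0.630 to 4.20 in separated 2-cell embryos, from 0.0456 to 0.156 in intact 4-cell embryos and from 0.00523 to 0.252 in separated 4-cell embryos. No 4-cell embryo reached the ratio of any 2-cell embryo. These shares follow from the levels given above and are a description.

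**Figure D2:**
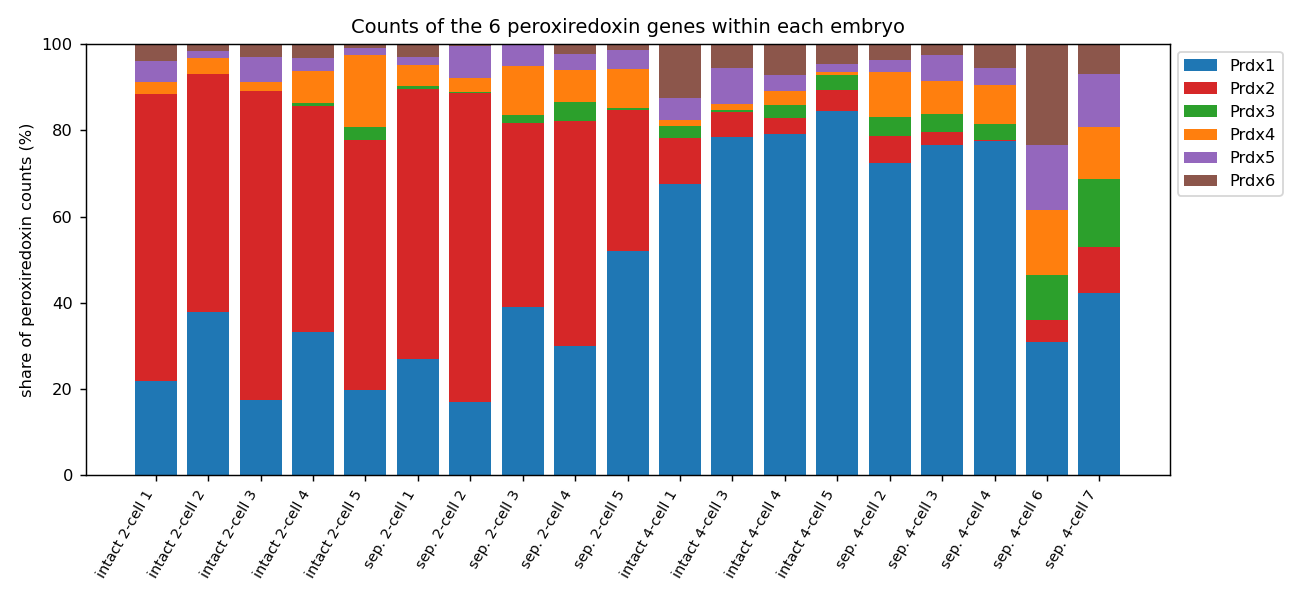
Share of each peroxiredoxin gene in the summed peroxiredoxin counts of an embryo, in percent from 0 to 100, with 1 bar per embryo. Prdx2 takes 32.7 to 71.7% of the bar in the 10 embryos of the 2-cell stage and 0.405 to 10.7% in the 9 of the 4-cell stage, and the 2 embryos of batch 2 (sep. 4-cell 6 and 7) have the smallest Prdx1 shares of the 4-cell stage, 30.8 and 42.3%.

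The summed level of the 6 peroxiredoxins was 2029 ± 845 CPM (SD, n = 5) in intact 2-cell embryos and 886 ± 200 CPM (n = 4) in intact 4-cell embryos, and 1872 ± 575 and 773 ± 316 CPM (n = 5 each) in separated embryos. Divided by exonic length, the highest level among the 10 genes at the 2-cell stage was that of Prdx2, at 404 ± 163 CPM per kilobase in intact and 327 ± 169 CPM per kilobase in separated embryos, followed by Prdx1 at 186 ± 136 and 201 ± 107. These neighbours in the order differed by less than the sum of their SDs in both groups. At the 4-cell stage Prdx1 was first, at 224 ± 45.8 CPM per kilobase in intact and 165 ± 104 in separated embryos. The next were Txn1 at 58.4 ± 26.3 in intact embryos and Gpx4 at 75.3 ± 34.7 in separated ones, while Prdx2 was at 18.8 ± 12.4 and 12.7 ± 10.3. With the longest transcript in place of all exons, Prdx2 and Prdx1 kept the first places at the 2-cell stage and Prdx1 the first at the 4-cell stage, while in intact 4-cell embryos Gpx4 (59.2 CPM per kilobase) moved ahead of Txn1 (58.4).

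Txn1 encodes thioredoxin, the reductant of most peroxiredoxins (chr4:57943373-57956411, minus strand). It was at 18.3, 37.7, 9.17, 29.5 and 10.9 CPM in intact 2-cell embryos and at 67.9, 29.4, 95.4 and 52.7 CPM in intact 4-cell embryos. The groups overlapped through 4-cell embryo 3, and the difference of 1.54 ± 1.11 on the log2 scale was not called (edgeR, adjusted p = 0.395). Separated 2-cell embryos spread from 0 to 115 CPM and separated 4-cell embryos from 10.2 to 97.8 CPM, with a fitted difference of 0.58 ± 1.19 (edgeR, adjusted p = 0.816).

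Sod1 encodes the cytosolic copper and zinc superoxide dismutase (chr16:90220754-90226329, plus strand). It was at 156, 164, 113, 177 and 127 CPM in intact 2-cell embryos and at 76.7, 33.5, 78.7 and 86.9 CPM in intact 4-cell embryos. The groups did not overlap, with all 4-cell embryos lower. Counting Prdx2, Prdx4 and Sod1, 3 of the 10 genes had such non-overlapping lower groups, as did 7.1% of all genes tested, and none had them higher (9.87% of all genes). In separated embryos these counts were 1 of 10 lower, Prdx2, and none higher, beside 6.93% and 7.17% of all genes. The Sod1 difference of -1.10 ± 0.42 on the log2 scale missed the threshold (edgeR, adjusted p = 0.0975). DESeq2 gave -1.24 ± 0.41 and called it (adjusted p = 0.0147), as did edgeR on the compared groups alone (adjusted p = 0.049) and without separated 2-cell embryo 5 (adjusted p = 0.0492), in a range up to 0.393 over the alternatives. In separated embryos the Sod1 stages overlapped, at 69.3 to 336 CPM and 48.7 to 177 CPM, and differed by -0.31 ± 0.45 (edgeR, adjusted p = 0.723).

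Sod2 encodes the manganese superoxide dismutase of mitochondria (chr17:13006846-13040063, plus strand). Its means were 74.0 ± 19.9 CPM (SD, n = 5) in intact 2-cell, 58.7 ± 24.2 CPM (n = 5) in separated 2-cell, 65.1 ± 14.1 CPM (n = 4) in intact 4-cell and 97.3 ± 34.3 CPM (n = 5) in separated 4-cell embryos. Its stage difference in intact embryos was -0.19 ± 0.39, with a 95% interval from -1.0 to 0.63 (edgeR, adjusted p = 0.81). Gpx4 (chr10:80047166-80056439, plus strand) had means of 73.4 ± 43.2, 77.2 ± 64.3, 58.9 ± 19.3 and 129.8 ± 59.8 CPM in the same order of groups. Its stage differences were -0.32 ± 0.63 in intact and 0.56 ± 0.68 in separated embryos (edgeR, adjusted p = 0.802 and 0.655).

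Separation was compared within each stage. No gene of the 10 was called at the 2-cell stage, where 0.0142% of all genes (2 of 14119) were called, or at the 4-cell stage, where 0.0% were called. At an unadjusted p under 0.05 in edgeR there were 0 of the 10 genes at the 2-cell stage and 1481 of all genes, and 2 of the 10 and 844 of all genes at the 4-cell stage. DESeq2 called 493 of all genes at the 2-cell stage, none of the 10 among them, and 378 at the 4-cell stage, with Prdx4 among them. An intact embryo is 1 library and a separated embryo a sum of 2 or 4 libraries made from single blastomeres, so separation cannot be told apart from input per library or number of libraries. At the 2-cell stage the differences ranged from -1.06 ± 0.94 for Prdx6 to 1.35 ± 1.24 for Prdx3 on the log2 scale. No gene of the 10 had non-overlapping groups there, as 0.432% of all genes had higher and 0.12% lower. The narrowest 95% interval there was that of Sod2, from -1.10 to 0.43.

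The genes under the unadjusted threshold at the 4-cell stage were Prdx4 and Sod1. Prdx4 was 2.55 ± 0.62 higher on the log2 scale in separated than in intact 4-cell embryos, with a 95% interval from 1.26 to 3.84, and its 5 separated embryos all lay above its 4 intact ones. Such non-overlapping higher groups were seen in 1.76% of all genes. The unadjusted p was 0.000536, and the result failed the adjustment over all genes in edgeR (adjusted p = 0.801), while DESeq2 gave 2.41 ± 0.63 and called it (adjusted p = 0.00616, in a range up to 1.0 over the alternatives). Limma-trend on blastomere libraries called it as well, at 2.27 ± 0.58 (adjusted p = 0.0415). Sod1 was 1.12 ± 0.47 higher (edgeR, adjusted p = 0.801), with overlapping groups, since separated embryos 6 and 7 were at 48.7 and 83.7 CPM. In the interaction of stage and separation 0 of the 10 genes and 0.0% of all genes were called by edgeR, with 1 of the 10, Prdx4, and 1228 of all genes under an unadjusted p of 0.05.

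**Figure D3:**
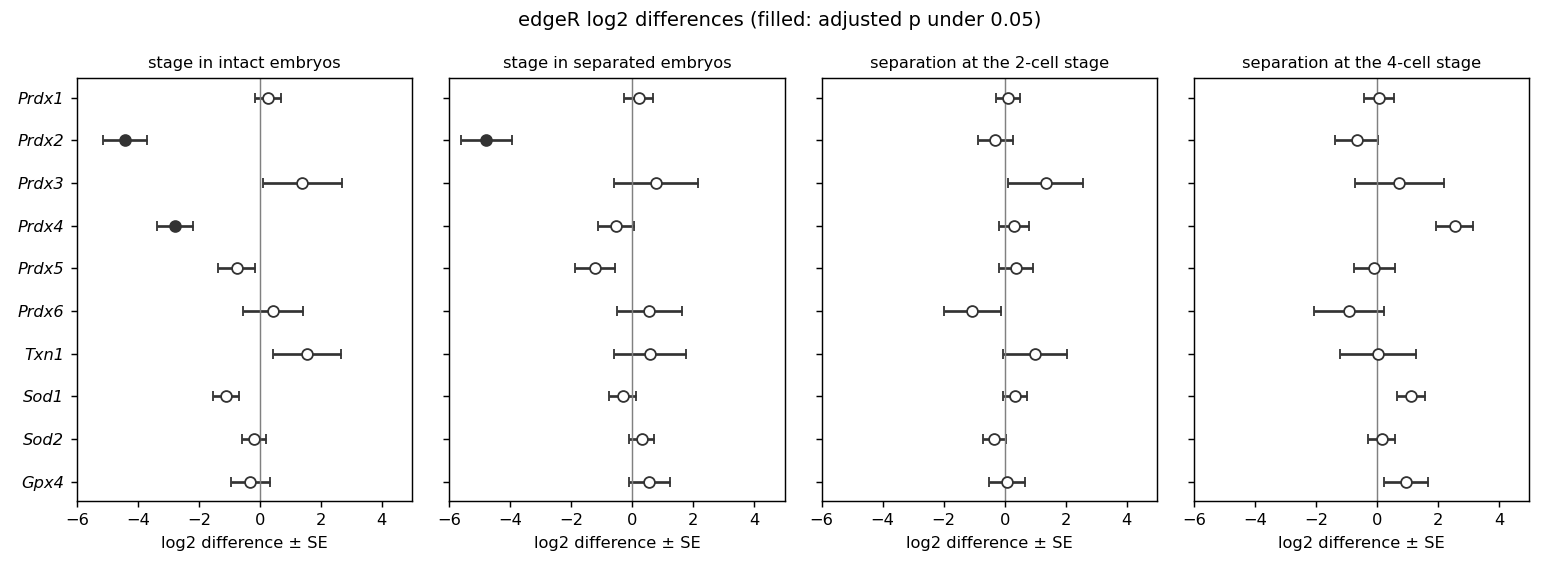
Fitted log2 differences with their standard errors for the 10 genes in the 4 comparisons, 4-cell minus 2-cell and separated minus intact; filled points have an adjusted p under 0.05 in edgeR. The filled points are Prdx2 in both stage panels and Prdx4 in intact embryos, and the open Prdx4 point of the last panel lies at 2.55.

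Among separated 4-cell embryos, no gene of the 10 was called between batch 2 (2 embryos) and batch 1 (3 embryos), where 2.03% of all genes were called by edgeR. At an unadjusted p under 0.05 there were 1 of the 10, Prdx1, and 1840 of all genes. The batch label separates embryos of different depth as well: embryos of batch 1 held 13041675 to 15810954 counts and those of batch 2 held 103179667 and 86817545. Prdx1 was lower by 1.89 ± 0.63 on the log2 scale in batch 2, with an unadjusted p of 0.00676 and an adjusted p of 0.159 in edgeR, and both batch 2 embryos lay below all 3 of batch 1. Prdx2 differed by 0.22 ± 0.83 (edgeR, adjusted p = 0.969).

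In separated embryos the sister blastomeres of an embryo could be compared library by library, here as CPM of each library's total counts and as the within-embryo SD of log2(CPM + 1). Sisters are not replicates of a condition, so these values are descriptive. In 2-cell embryos the sisters were closest for Prdx1 (SD 0.32), Prdx4 (0.38) and Prdx2 (0.65), beside a median of 1.52 over 6343 genes with a mean of at least 10 CPM. They were furthest apart for Prdx3 (2.85) and Prdx6 (2.21). Levels differed too: the median library was at 516 CPM for Prdx1, 101 for Prdx4 and 748 for Prdx2. It was at 27.6 CPM for Prdx3 and 9.31 for Prdx6. Genes of like level were not compared. Prdx2 was at 925.7 and 1251 CPM in the sisters of embryo 1, 1112 and 1670 in embryo 2, 534 and 705 in embryo 3, 153 and 560 in embryo 4, and 708 and 789 in embryo 5. Embryo 4 held the widest Prdx2 gap, 3.67-fold, and in the other 4 embryos the sisters were at most 1.5-fold apart.

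At the 4-cell stage the spread between sisters differed by batch for all genes, with a median SD of 1.82 over 5850 genes in batch 1 and 0.534 over 6776 genes in batch 2. Depth differed as well: blastomere libraries of batch 1 held 2404473 to 5232474 counts. Those of batch 2 held 22398965 to 31576264, apart from blastomere 2 of embryo 7 at 2019180. The part of depth in this spread was not tested. Sisters of batch 1 had SDs from 0.62 for Sod1 to 3.26 for Prdx6, and sisters of batch 2 from 0.16 for Gpx4 to 1.39 for Txn1. Prdx2, at 1.85 in batch 1 and 0.41 in batch 2, lay near the median of all genes in both. Its lowest and highest sisters were at 15.9 and 127 CPM in embryo 2, 1.15 and 75.2 CPM in embryo 3, and 0 and 9.20 CPM in embryo 4. The sisters of embryos 6 and 7 ran from 23.7 to 38.6 CPM and from 42.6 to 87.6 CPM. Over the 30 blastomere libraries, Prdx6 was at 0 in 8, Prdx3 in 5, Txn1 in 3, Prdx2 in 2 and Gpx4 in 1, and the other 5 genes had a count in each.

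**Figure D4:**
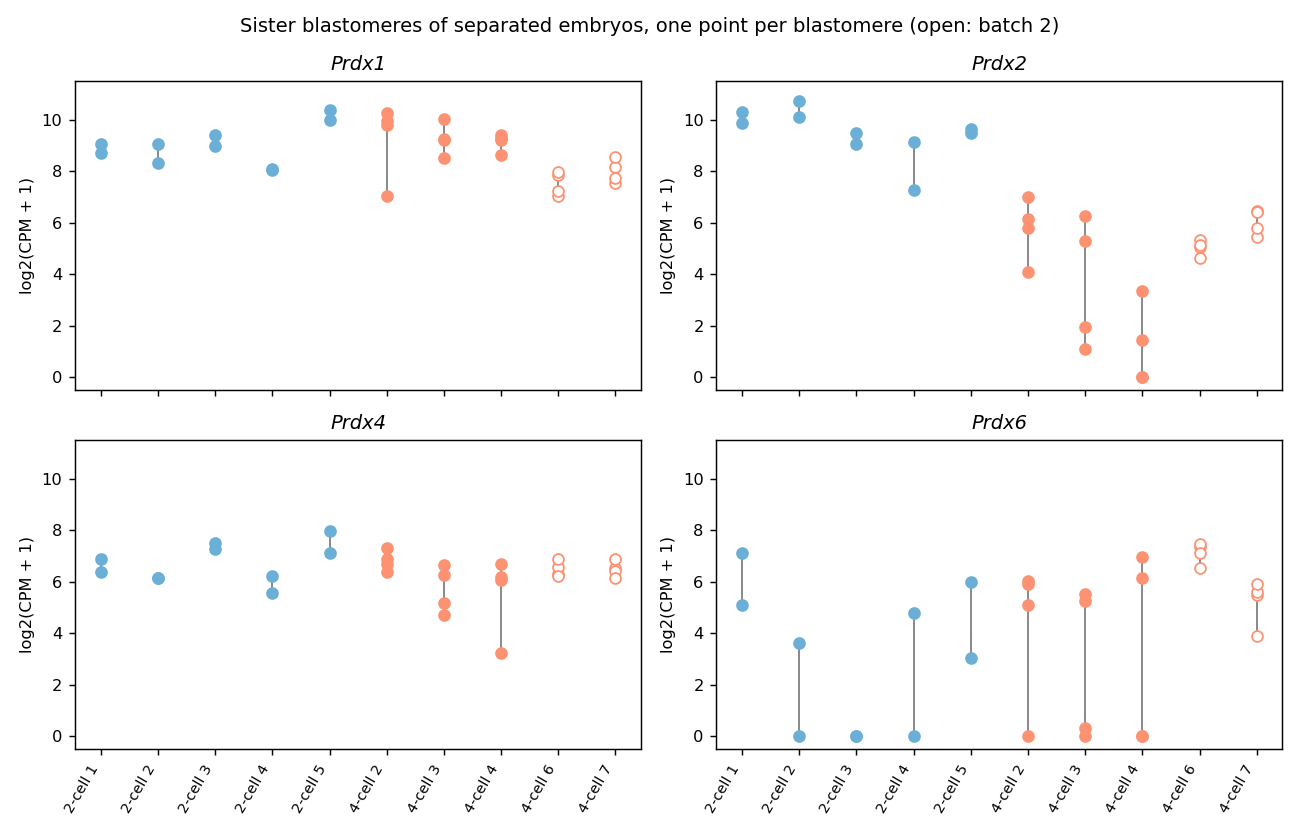
Level of 4 peroxiredoxin genes in single blastomeres as log2(CPM + 1), with 1 point per blastomere, the sisters of an embryo joined by a line, and open points for batch 2. Prdx1 and Prdx4 have a count in all 30 blastomeres, Prdx2 blastomeres of the 4-cell stage all lie below those of the 2-cell stage, and Prdx6 is at 0 in 8 blastomeres, all of batch 1.

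The genes whose levels followed the called members most closely over the 19 embryos were found among 6632 genes with a mean of at least 10 CPM. For Prdx2 this was Lmo1, which encodes a LIM-only transcriptional cofactor, with a Pearson correlation of log2(CPM + 1) of 0.967. Lmo1 had means of 230.3 and 240.9 CPM in intact and separated 2-cell embryos, and 10.7 and 9.44 CPM in intact and separated 4-cell embryos. For Prdx4 it was Siah1b, which encodes a ubiquitin ligase and also had its lowest mean in intact 4-cell embryos, at 32.2 CPM beside 102 CPM in intact 2-cell embryos (correlation 0.824). The embryos share their groups, which such correlations carry. Among the 10 genes themselves the highest correlation was 0.55, between Prdx4 and Sod1, and it was 0.07 after each group's mean was removed.

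Promoter sequences were read for the genes that changed and for Prdx1, because the antioxidant response element, the site bound by the stress regulator NRF2, is a textbook feature of genes of this kind. Each line holds 300 bases, 250 before and 50 after the first RefSeq start on GRCm38.p6, on the gene's own strand: chr4:116685349-116685648 (plus strand) for Prdx1, chr8:84969372-84969671 (plus) for Prdx2 and chrX:155338411-155338710 (minus) for Prdx4. Capitals mark matches to the element's core, TGANNNNGC, searched on both strands.
Prdx1: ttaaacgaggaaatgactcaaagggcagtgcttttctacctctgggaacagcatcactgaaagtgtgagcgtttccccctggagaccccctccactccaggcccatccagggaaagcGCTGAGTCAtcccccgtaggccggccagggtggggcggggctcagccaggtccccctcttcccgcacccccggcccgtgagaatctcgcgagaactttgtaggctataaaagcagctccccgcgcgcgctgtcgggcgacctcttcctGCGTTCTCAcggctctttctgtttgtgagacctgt
Prdx2: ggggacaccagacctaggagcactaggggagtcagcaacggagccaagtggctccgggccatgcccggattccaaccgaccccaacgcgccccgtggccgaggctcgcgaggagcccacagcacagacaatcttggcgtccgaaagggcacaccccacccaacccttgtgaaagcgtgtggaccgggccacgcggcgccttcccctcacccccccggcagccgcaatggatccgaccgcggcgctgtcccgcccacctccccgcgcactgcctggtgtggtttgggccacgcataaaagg
Prdx4: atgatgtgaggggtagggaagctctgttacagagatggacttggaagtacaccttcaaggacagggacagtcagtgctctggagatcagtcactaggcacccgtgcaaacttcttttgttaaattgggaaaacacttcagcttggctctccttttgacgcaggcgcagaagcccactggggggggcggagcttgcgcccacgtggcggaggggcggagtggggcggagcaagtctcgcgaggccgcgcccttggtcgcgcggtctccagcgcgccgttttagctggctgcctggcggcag

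The core was found 2 times in the Prdx1 window and 0 times in those of Prdx2 and Prdx4. The windows of Prdx5 and Sod1 held 1 match each. Prdx6 had no entry among the promoter windows and was not searched. These letters are common, since 41.3% of 32851 promoter windows of this length hold them, so a match is only a description. Prdx4 held 1 match to the NR5A2 site TCAAGGNCA, found in 1.62% of promoters, and Prdx2 held no match to this site, to the KLF box GGGNGTGG (17.6% of promoters) or to TAATCC (7.06%).

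The wider redox network was described with 7 lists of genes that reduce, supply or regulate these enzymes, 131 genes without the 10, of which 97 could be tested. In the counts given for these lists, rose and fell mean called higher and called lower by edgeR. In intact embryos 5 of the 97 rose and 8 fell from the 2-cell to the 4-cell stage, with a median log2 difference of -0.42. In separated embryos 3 rose and 7 fell, with a median of 0.01. These shares stand beside the 10.4% and 11.1% called among all genes. With genes lacking any count in 1 of the groups set at the value for 3 counts over that group, the medians were -0.42 and 0.04. No gene of the lists was called for separation at either stage or for the interaction by edgeR. Between batches 4 were called lower in batch 2 and 0 higher, named here because the count is small: Txndc9 differed by -1.44 ± 0.35, Atox1 by -2.71 ± 0.52, Mt1 by -2.31 ± 0.48 and Mt2 by -2.06 ± 0.45 on the log2 scale (edgeR, adjusted p = 0.0315, 0.00506, 0.011 and 0.0161). These 4 were chosen after their values were seen.

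Of 13 glutathione peroxidase and transferase genes tested, 0 rose and 2 fell in each kind of embryo. Gstm5, a glutathione transferase, fell by 4.96 ± 0.96 in intact and by 4.63 ± 1.07 on the log2 scale in separated embryos (edgeR, adjusted p = 0.00272 and 0.0102), from 308 ± 184 to 9.94 ± 7.55 CPM (SD) in intact embryos. Mgst3, a microsomal transferase, fell by 4.26 ± 0.67 and by 3.74 ± 0.73. Of 14 genes of glutathione synthesis and recycling, Ggct, which cleaves gamma-glutamyl peptides, fell by 3.44 ± 0.50 and by 2.86 ± 0.54, from 392 ± 233 to 36.1 ± 11.2 CPM in intact embryos, and 0 rose.

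Of 12 selenoprotein and selenium genes, 2 fell and 0 rose in each kind of embryo. Sephs2, which makes the selenium donor needed for enzymes such as Gpx4, fell by 3.29 ± 0.61 in intact and by 2.17 ± 0.64 on the log2 scale in separated embryos (edgeR, adjusted p = 0.00183 and 0.0352). Selenow, a small selenoprotein, fell by 3.56 ± 0.86 and by 3.06 ± 0.95. Gpx4 itself was not called in either.

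Of 22 thioredoxin system genes, 1 rose and 1 fell in each kind of embryo. Txndc9, a thioredoxin-like protein, fell by 0.97 ± 0.25 and by 1.17 ± 0.28 on the log2 scale (edgeR, adjusted p = 0.0179 and 0.0125), from 824 ± 143 to 421 ± 144 CPM in intact embryos. Txnl4a, a spliceosome protein with a thioredoxin fold, rose by 1.87 ± 0.59 in intact embryos (edgeR, adjusted p = 0.048). In separated embryos the Txnl4a difference was 1.67 ± 0.62, without a call (edgeR, adjusted p = 0.0853). Txnrd2, the mitochondrial thioredoxin reductase, had 0 counts in all 10 embryos of the 2-cell stage and was called higher in separated 4-cell embryos. With 3 counts set for the 2-cell group it was 256-fold higher, on 183 counts in batch 1, all from embryos 2 and 3. This value leaves out the spread between embryos.

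Of 12 NADPH supply genes tested, 3 were called higher and 2 lower in intact embryos. Nadk2, Mthfd1 and Idh1, enzymes that make NADP or reduce it, had 0 counts in the 5 intact 2-cell embryos. They had 135, 207 and 106 counts over the 4 intact 4-cell embryos. With 3 counts set for the 2-cell group these are 125-fold, 192-fold and 98.5-fold higher, values that leave out the spread between embryos. In separated 2-cell embryos Nadk2 held 805 counts over 4 embryos. Mthfd1 held 1215 counts, at 23.9 CPM in embryo 4, 0.0254 CPM in embryo 1 and 0 in the others. Idh1 held 29 counts, all in 1 embryo. None of these 3 genes was called between stages in separated embryos. Mthfd2, a mitochondrial folate enzyme, fell by 2.83 ± 0.89 on the log2 scale in intact embryos (edgeR, adjusted p = 0.0467). At the level of batch 1 it fell by 4.91 ± 1.12 in separated embryos (edgeR, adjusted p = 0.00947). Mthfd2 was at 0.145, 2.11 and 1.39 CPM in the separated 4-cell embryos of batch 1, and at 24.2 and 24.9 CPM in batch 2. The batch 2 values lay within the range of separated 2-cell embryos, 16.5 to 45.8 CPM. Me1, malic enzyme, fell by 3.69 ± 1.16 in intact embryos (edgeR, adjusted p = 0.047), and it was added to the genes named after its values were seen. Tkt, transketolase, was called higher in separated embryos, from 0 counts to 58 counts in batch 1. Of the 15 NRF2 pathway genes 1 was called between stages, Bach1, a repressor at antioxidant response elements. It rose by 3.07 ± 0.84 in separated embryos (edgeR, adjusted p = 0.0246). In intact embryos the Bach1 difference was 2.30 ± 0.79, without a call (edgeR, adjusted p = 0.0659). The list of superoxide dismutase partners and catalase, 9 genes, also holds the ferritin genes Fth1 and Ftl1 and the metallothionein genes Mt1 and Mt2. Of these 9 genes 1 was called between stages, Mt2, which rose by 1.0 ± 0.31 in intact embryos (edgeR, adjusted p = 0.0429). In separated embryos the Mt2 difference was 0.71 ± 0.33 (edgeR, adjusted p = 0.162).

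Embryos outside a comparison, and those of batch 2 in separated embryos, enter it only through the shared filter, scaling and estimate of spread. When each of the 19 embryos was left out in turn, the calls of Ggct, Gstm5, Mgst3, Nadk2, Selenow, Sephs2 and Txndc9 in intact embryos held each time in edgeR. The other calls in intact embryos did not: that of Txnl4a ended in 15 of the 19, Mt2 in 14, Idh1 in 11, Me1 and Mthfd1 in 9 and Mthfd2 in 8, with adjusted p up to 0.164. In separated embryos the calls of Ggct, Gstm5, Mgst3, Mthfd2 and Txndc9 held each time, while Txnrd2 and Tkt ended in 14, Selenow in 7, Sephs2 in 3 (separated 2-cell 1 and separated 4-cell 2 and 4) and Bach1 in 1 (separated 4-cell 4), with adjusted p up to 0.153.

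The other alternatives, up to 12 for each gene, ended more of these calls. In intact embryos the call of Sephs2 held in all of them. The calls of Ggct, Gstm5, Mgst3, Selenow and Txndc9 ended in 1, limma voom on blastomere libraries, with adjusted p of 0.107, 0.114, 0.121, 0.112 and 0.394. Nadk2 ended in 3 (adjusted p up to 0.0581), Mthfd1 and Idh1 in 2, Me1 and Txnl4a in 5, and Mthfd2 and Mt2 in 7 (adjusted p up to 0.989). In separated embryos the calls of Ggct, Gstm5, Mgst3, Mthfd2 and Txndc9 held in all 12, with adjusted p up to 0.0471. These fits, like those with an embryo left out, take the level of batch 1, so they do not cover the batch 2 values of Mthfd2. Txnrd2 and Tkt ended in 7, Sephs2 in 3, and Selenow and Bach1 in 2, with adjusted p up to 0.248.

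**Figure D5:**
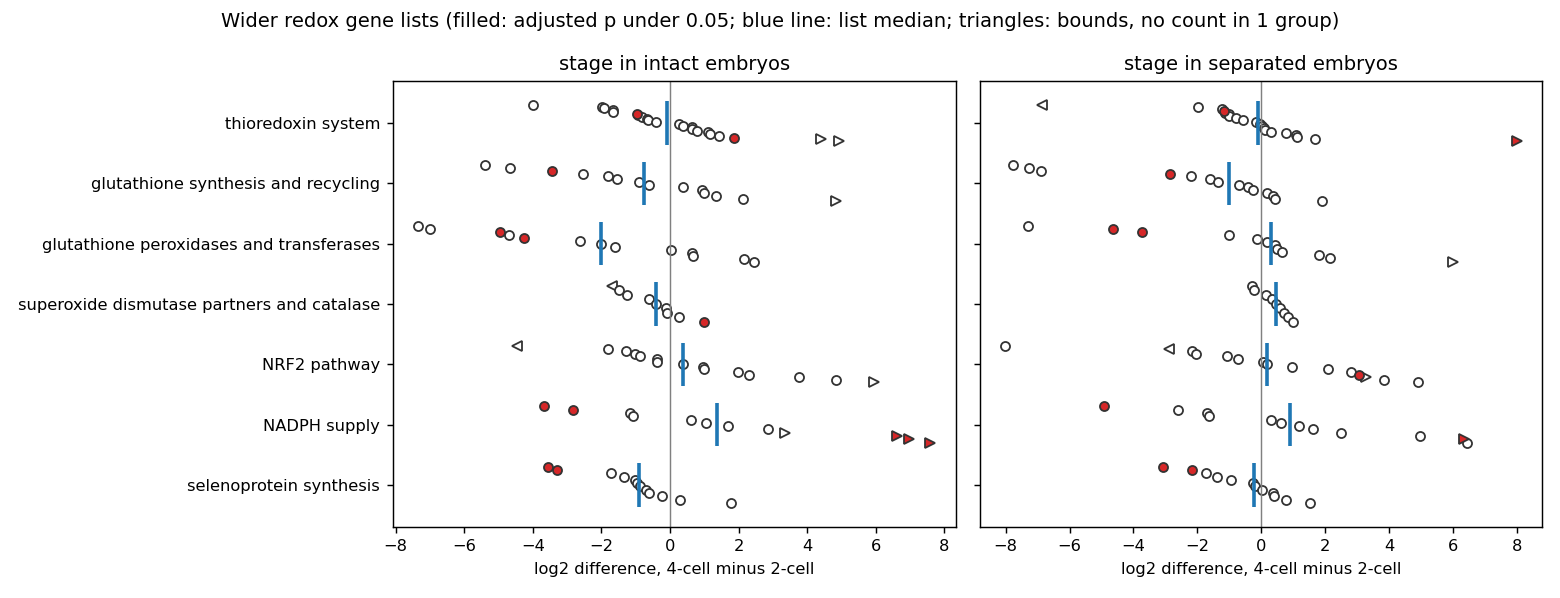
Fitted log2 differences between stages for the tested genes of the 7 redox lists, with 1 point per gene, filled where the adjusted p is under 0.05. Triangles (labelled bounds in the figure) mark genes with no count in 1 group, drawn at the value for 3 counts over that group. A line marks the list median. Filled points lie to the left for transferases, glutathione synthesis and selenoproteins, and on both sides for NADPH supply and the thioredoxin system.

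The tissue label was checked against markers. The 13 oocyte and embryo markers summed to 4891 to 34472 CPM, led by Dppa3, while the lists of cumulus, blood, sperm and oviduct markers each summed to at most 125 CPM in any embryo, reached by the oviduct list, which Epcam led. Intact libraries held 7157817 to 9889926 counts at the 2-cell stage and 2738246 to 4194073 at the 4-cell stage. Blastomere libraries held 5930832 to 44048051 and 2019180 to 31576264. The depth of intact 4-cell embryos was thus the lowest of the 4 groups, and Prdx2 and Prdx4 were also called with all embryos thinned to 2738246 counts.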

How the data were processed

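Expected counts per gene and library were deposited by the authors. Per the submitters' processing notes, Trim Galore 0.6.10, STAR 2.7.3a, RSEM 1.2.28 and GRCm38 were used. Annotation and strandedness are not given in the sources used here. Counts were rounded (12.6% of non-zero values were not whole) and summed over the blastomeres of an embryo, the replicate. A deeper blastomere library weighs more in this sum: the sisters of separated 2-cell embryo 4 held 44048051 and 12168639 counts. No 2 libraries were identical.

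EdgeR 4.0.16 (R 4.3.3) fitted group and batch over 19 embryos after filterByExpr and TMM, with 14 residual degrees of freedom and a common biological coefficient of variation of 1.43. Code was tested on simulated data. Embryo totals ran from 2738246 to 103179667 counts, and this depth limits the precision of rare transcripts. Batch is the labels' own word, with no meaning given.

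Alternatives used DESeq2 1.42.0, limma 3.58.1, other scalings, filters, libraries and left-out embryos. All 10 genes are named. Of each redox list, up to 3 called genes of smallest p per stage comparison are named, together with the nearest correlate of each called gene and copies of the 10. Me1 and 4 genes that differed between batches were named after their values were seen. The 10 genes and the lists were chosen with earlier results of these data known.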

Additional observations from a re-analysis of the deposited data

Results flagged for a closer look

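Of 40 sets of values, the 10 genes in each of the 4 groups, 4 held an embryo far from the rest of its group by Dixon's criterion at the 95% level, which chance exceeds in about 1 of 20 sets. Prdx1 was at 474 CPM in intact 4-cell embryo 3, beside 724 to 765 CPM in the other 3. In the same embryo Prdx3 was at 4.09 CPM, beside 28.9 to 30.3 CPM. Prdx2 was at 113 CPM in intact 4-cell embryo 1, beside 34.7 to 45.9 CPM in the others. Prdx4 was at 135 CPM in separated 4-cell embryo 2, beside 60.3 to 71.5 CPM in the other 4. The calls of Prdx2 and Prdx4 in intact embryos held without any of these embryos.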

How the results depend on the processing

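Limma-trend, on embryos and on blastomere libraries, and the comparison of batches were added after seeing the data, limma-trend because voom weights reached 4.26e+17 on embryos and 5.07e+16 on blastomere libraries. With each blastomere as a library, voom called 0 of the 10 genes between stages in intact embryos, and limma-trend called 2 in separated embryos (Prdx2 and Prdx5) and 1 (Prdx4) between separated and intact 4-cell embryos. Voom on embryos called 0 in separated embryos, and DESeq2 called 1 (Prdx4) between separated and intact 4-cell embryos. With 1 embryo left out, the number called was 2 to 3 in intact and 1 to 1 in separated embryos.

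Signs of stage differences changed in 3 of 310 values of the 10 genes in intact and 7 of 310 in separated embryos. For separation they changed in 34 of 310 values at the 2-cell and 28 of 310 at the 4-cell stage, and for the interaction in 24 of 300. In intact embryos Prdx6 was at -0.074 with the replicate block and ran from -0.22 to 0.61 with 1 embryo left out, and Gpx4 from -0.68 to 0.022. In separated embryos Prdx1 ran from -0.031 to 0.54 and Sod1 from -0.56 to 0.0097. The Prdx2 interaction ran from -1.75 to 0.28. With blastomere libraries, voom and limma-trend gave -0.020 and -0.59 for Prdx3 and -0.43 and -0.15 for Sod2 by stage in separated embryos, and -1.92 and -1.72 for Prdx3 by separation at the 4-cell stage. Limma-trend on these libraries gave -0.14 for Prdx1 by stage in separated embryos and -0.19 for Sod1 by separation at the 2-cell stage, where voom gave -0.042 for Prdx4. None of these differences was called, and the cause was not tested.

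No pairing by replicate number was seen: of 21 same-numbered pairs 0 deviated together with a correlation over 0.1 (range -0.089 to 0.0529). Pairs of different numbers were not compared, so this check cannot decide whether the embryos were paired. A replicate block within batch 1 gave Prdx2 at -4.37 and Prdx4 at -2.76 in intact and Prdx2 at -5.25 in separated embryos (edgeR, adjusted p = 0.000205, 0.0282 and 0.000382), with calls of the 10 genes unchanged and 727 genes called in each.

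Over all genes, 1469 in intact and 1568 in separated embryos became 3035 and 3210 with DESeq2 and 2844 and 2318 with voom. Limma-trend on embryos gave 2588 and 1980, blastomere libraries 715 and 3869 with voom and 1736 and 3825 with limma-trend, and embryos left out 798 to 1652 and 811 to 1654. For separation, 2 genes at the 2-cell and 0 at the 4-cell stage became 493 and 378 with DESeq2, 104 and 11 without the filter, 8 and 13 with voom, 107 and 3 with blastomere libraries in voom and 58 and 131 in limma-trend. The interaction went from 0 genes to 517 with DESeq2 and 38 without the filter. Size factors of DESeq2 in edgeR moved the median difference of all genes in intact embryos from -4.6e-05 to -0.13, with the same calls among the 10 genes. With all embryos thinned to 2738246 counts, the depth of the shallowest, the calls of the 10 genes were the same.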
